A study of Homo sapiens with 6 samples.

Results

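Immune checkpoint and evasion genes were examined in a pair of human breast cancer cell lines. The set held 9 genes of the 17039 in the expression table, taken by gene symbol: CD274, PDCD1LG2, CD276 and VTCN1, which encode B7 family ligands, CD47, NT5E, PVR, TNFRSF14 and IDO1. All 9 had an entry in the table. RNA sequencing had been done on 3 libraries of 231-BR cells and 3 libraries of MDA-MB-231 cells. MDA-MB-231 is an established triple-negative breast cancer line, and 231-BR is a brain-seeking line derived from it. Both were grown in DMEM with fetal bovine serum and penicillin-streptomycin, and the 231-BR medium alone also held the antibiotic G418. Any effect of G418 and a difference between the lines therefore cannot be told apart. The 231-BR cells were a gift from another laboratory, and the MDA-MB-231 cells were bought from ATCC. An effect of the source of the stocks likewise cannot be told apart from a difference tied to brain seeking. Each group was a single cultured line without immune cells or brain tissue, and the labels do not say whether the 3 libraries of a line came from separate cultures, so the p-values measure the spread between these libraries, which may be technical.

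Tumor cells can restrain immune cells through molecules that they show on their surface or through metabolites that they make. The ligands PD-L1 and PD-L2 bind PD-1 on T cells and lower T cell activation, while CD47 binds SIRPα on macrophages and holds back phagocytosis. Extracellular ATP is trimmed step by step to adenosine, with CD73 (encoded by NT5E) at the last step, and tryptophan is oxidized to kynurenine by enzymes such as IDO1. Adenosine and kynurenine both dampen T cells.

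Expression was given as FPKM, a count of sequenced fragments scaled for transcript length and library size. Levels of different genes can be set side by side on this scale only roughly, since the transcript lengths used are not known. Summed FPKM ran from 465020 to 472007 in the 231-BR libraries and from 486937 to 496420 in the MDA-MB-231 libraries, and the read depth of the libraries is unknown. Levels of marker genes are given for each line, and they do not establish its identity. VIM, a mesenchymal filament gene, had mean levels of 2550 FPKM (231-BR) and 2310 FPKM (MDA-MB-231). The other 4 genes listed for the line were lower in 231-BR cells. CD44 was at 181 against 251, KRT8 at 176 against 237, KRT18 at 273 against 352 and the keratin gene KRT7 at 0.713 against 77 FPKM. Among receptor markers, PGR, the progesterone receptor gene, was at most 0.07 FPKM in all 6 libraries. ESR1, the estrogen receptor gene, was at 1.08, 0.84 and 0.86 FPKM in 231-BR libraries. In MDA-MB-231 libraries ESR1 was at 0.83, 0.80 and 0.74 FPKM. ERBB2, the HER2 gene, had mean levels of 9.88 FPKM (231-BR) and 4.95 FPKM (MDA-MB-231). The leukocyte list summed to 1.96 to 2.26 FPKM in 231-BR libraries and 0.8 to 0.93 FPKM in MDA-MB-231 libraries. Of its 9 genes with an entry, 8 were under 1 FPKM in every library, and the pan-leukocyte gene PTPRC was at most 0.04 FPKM in any library. In bulk RNA of this kind, fewer cells of a type and less RNA per cell cannot be told apart.

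The members split into genes that moved and genes that did not pass the test. NT5E and CD276 were lower in 231-BR cells and CD47 and TNFRSF14 were higher, while CD274, PDCD1LG2, PVR and IDO1 were not called and VTCN1 was too low to test. Of the 8 members with a mean of at least 0.1 FPKM, 2 were therefore higher and 2 lower at an adjusted p under 0.05 (limma on log2(FPKM + 0.1)), where 44.4% of all 13465 genes tested were higher and 32.9% lower, or 77.3% in either direction. No overlap between the libraries of the lines was found for the same 4 of these 8 members, against 78.4% of all genes tested. The log2 fold change, given throughout as 231-BR against MDA-MB-231 on the log2(FPKM + 0.1) scale, had a median of -0.01 over the 8 members and 0.08 over all genes tested. The study also asked for an absolute log2 fold change above 1 and an FPKM of at least 1, which was read here as a mean that reached 1 FPKM in each line. By these criteria CD47 passed upwards and NT5E downwards, where 4.68% and 1.77% of all genes tested did so, or 6.45% in either direction. Summed over the members, expression ran from 206 to 209 FPKM in 231-BR libraries and from 377 to 388 FPKM in MDA-MB-231 libraries, a gap that came mostly from NT5E.

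**Figure D1:**
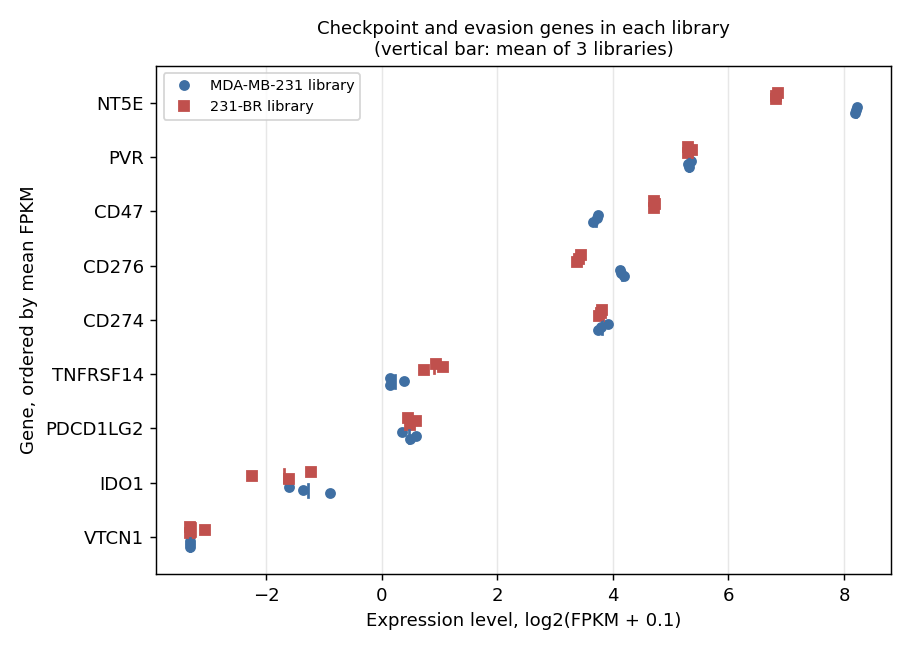
Expression level, log2(FPKM + 0.1), of each immune checkpoint and evasion gene in the 6 libraries, with 1 point a library, squares for 231-BR, circles for MDA-MB-231 and a vertical bar at each mean. NT5E sits highest in both lines, and the points of the lines are apart for NT5E, CD276, CD47 and TNFRSF14 and mixed for CD274, PDCD1LG2, PVR and IDO1.

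CD274 (gene ID 29126, chromosome 9) encodes PD-L1, the main ligand of PD-1. Its level was 14.02, 13.71 and 13.51 FPKM in the 231-BR libraries and 14.90, 13.80 and 13.36 FPKM in the MDA-MB-231 libraries. The libraries of the lines overlapped. Means were 13.7 ± 0.257 (SD, n = 3) and 14.0 ± 0.793 FPKM, and the log2 fold change was -0.03 with a 95% interval of -0.13 to 0.07 (adjusted p = 0.6, limma), which corresponds to a ratio between 0.915 and 1.05. With median-of-ratios scaling, which sets the median gene of the lines equal, the value was -0.11 with an adjusted p of 0.044 by limma.

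CD274 is a well known target of interferon-gamma, so its promoter window is shown, from 250 bases before to 50 bases from the start of the gene on (RefSeq, GRCh38.p14, chr9:5450292-5450591, plus strand). The capitals mark a pair of overlapping matches to an interferon response element, searched on both strands as GAAA, any 2 bases and GAAA, which begin 208 and 202 bases before the start. Such a match is a description of the letters and does not show that a factor bound there.
CD274: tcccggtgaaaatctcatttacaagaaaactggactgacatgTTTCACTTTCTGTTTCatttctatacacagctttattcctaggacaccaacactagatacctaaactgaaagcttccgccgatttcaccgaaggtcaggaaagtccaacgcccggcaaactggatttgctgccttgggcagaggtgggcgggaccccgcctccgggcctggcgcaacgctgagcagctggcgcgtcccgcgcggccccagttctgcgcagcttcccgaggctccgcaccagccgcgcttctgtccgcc
The element was found in 3.57% of the 35116 promoter windows in the RefSeq table. Of the 7 members with a window in that table, CD274 was the sole gene with this match, and PDCD1LG2 and IDO1 had no window in it.

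The genes around PD-L1 control were mixed. Of 19 tested regulators of PD-L1 (the interferon-gamma receptor and its kinases, transcription factors, and proteins that stabilize or degrade PD-L1), 2 were higher, 8 lower and 9 not called, with a median log2 fold change of -0.09. That was 10.5% higher and 42.1% lower, against 44.4% and 32.9% of all genes tested. IRF1, the transcription factor that carries the interferon-gamma signal to the PD-L1 promoter, was lower in 231-BR cells at 6.85 ± 0.0306 against 9.97 ± 0.492 FPKM (log2 fold change -0.53, adjusted p = 2.7e-06, limma). JAK2, a kinase of the interferon-gamma receptor, was at 1.53 ± 0.0361 and 1.74 ± 0.196 FPKM (log2 fold change -0.17, adjusted p = 0.13, limma). JAK2 was called lower with quantile normalization (-0.55, adjusted p = 3.4e-04), with median-of-ratios scaling (-0.25, adjusted p = 0.035) and without MDA-MB-231 replicate 3 (-0.25, adjusted p = 0.044), all by limma. CMTM6, which protects PD-L1 from breakdown, was at 40.9 ± 0.582 and 37.9 ± 1.81 FPKM, a log2 fold change of 0.11 whose adjusted p of 0.017 (limma) was lost under 6 of the alternatives.

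Among genes induced by interferon-gamma itself, 6 of 9 tested were higher and 2 lower, with a median log2 fold change of 0.46, where 44.4% and 32.9% of all genes tested were. GBP5, an interferon-induced GTPase, was higher in 231-BR cells at 1.7 ± 0.0513 against 0.72 ± 0.0794 FPKM (log2 fold change 1.14, adjusted p = 3.7e-06, limma), or 0.65 with a pseudocount of 1 and 0.72 with quantile normalization. TAP1, the peptide transporter of antigen presentation, went the other way, and is named here after its value was seen. It was lower in 231-BR cells at 5.73 ± 0.451 against 8.69 ± 0.372 FPKM (adjusted p = 1.1e-05, limma).

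PDCD1LG2 (gene ID 80380, chromosome 9) encodes PD-L2, the second ligand of PD-1, and is the next gene after CD274. Its level was low, at 1.27, 1.40 and 1.31 FPKM in 231-BR libraries and 1.17, 1.41 and 1.30 FPKM in MDA-MB-231 libraries. The libraries again overlapped. The log2 fold change was 0.04 with an interval of -0.19 to 0.26 (adjusted p = 0.75, limma), and it turned to -0.36 (adjusted p = 0.0067, limma) with quantile normalization. PD-L1 RNA exceeded PD-L2 RNA in every library. The ratio of CD274 to PDCD1LG2 was 11, 9.79 and 10.3 in 231-BR libraries and 12.7, 9.79 and 10.3 in MDA-MB-231 libraries (exact two-sided permutation p = 0.9, where 3 against 3 libraries cannot go below 0.1; adjusted p = 0.9 over 3 ratios compared). Both genes overlap the long noncoding RNA gene INCR1 in RefSeq, and the sources used here do not say whether counting used the strand.

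CD276 (gene ID 80381, chromosome 15) encodes B7-H3, a B7 family protein that many solid tumors carry. It stood at 10.80, 10.55 and 10.27 FPKM in 231-BR libraries and at 17.38, 17.58 and 18.26 FPKM in MDA-MB-231 libraries. The lowest MDA-MB-231 library lay well above the highest 231-BR library. The means of 10.5 ± 0.265 and 17.7 ± 0.461 FPKM differed 1.68-fold, a log2 fold change of -0.75 (SE 0.0379, adjusted p = 4.4e-08, limma). Of all genes tested, 7.52% had a lower log2 fold change.

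With CD276 lower and CD274 not called, the order of these B7 ligands by FPKM turned around. The ratio of CD276 to CD274 was 0.77, 0.77 and 0.76 in 231-BR libraries and 1.17, 1.27 and 1.37 in MDA-MB-231 libraries. Which RNA was the more abundant is uncertain at ratios this near to 1. The ratios of the lines did not overlap, and the exact two-sided permutation p of 0.1 was the smallest that 3 against 3 libraries allow (adjusted p = 0.15 over the 3 ratios).

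VTCN1 (gene ID 79679, chromosome 1) encodes B7-H4, another inhibitory B7 ligand. It was listed at 0 in 5 of the 6 libraries and at 0.02 FPKM in 231-BR replicate 2, and was not tested.

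Of the other B7 and butyrophilin genes, 10 could be tested, 6 of them higher, 1 lower and 3 not called, with a median log2 fold change of 0.74. As shares, 60.0% were higher and 10.0% lower, against 44.4% and 32.9% of all genes tested. BTN3A3, a butyrophilin, rose from 0.74 ± 0.108 to 3.39 ± 0.142 FPKM in 231-BR cells (log2 fold change 2.06, adjusted p = 4.5e-08, limma), or 1.34 with a pseudocount of 1. Its neighbor BTN3A2 rose from 2.6 ± 0.0351 to 5.5 ± 0.292 FPKM (log2 fold change 1.05, adjusted p = 1.2e-07, limma). The butyrophilin copies BTN3A1, BTN3A2 and BTN3A3 are close in sequence, so reads may have been shared among them and their single values are uncertain. ILDR2, a B7-like membrane protein, rose from 1.97 ± 0.118 to 4.46 ± 0.0608 FPKM (log2 fold change 1.14, adjusted p = 1.4e-07, limma).

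**Figure D2:**
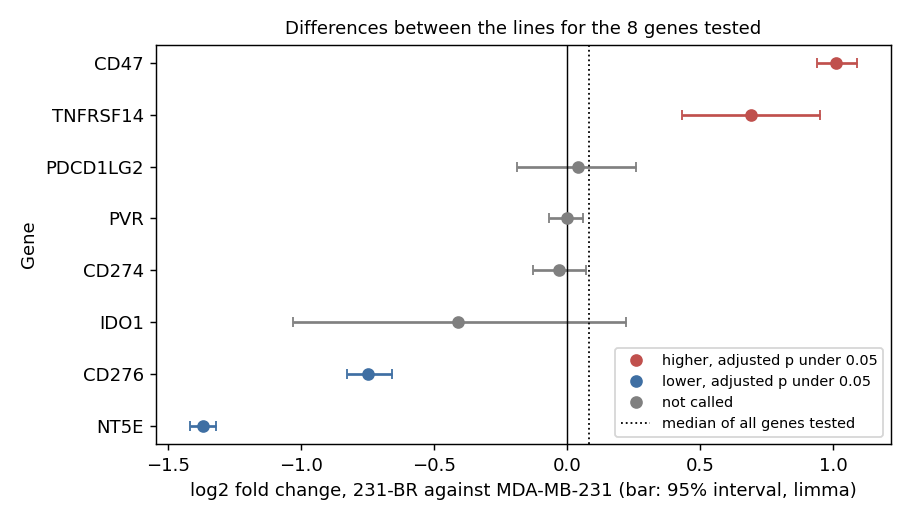
Log2 fold change of each tested member, 231-BR against MDA-MB-231, with its 95% interval from the limma fit on log2(FPKM + 0.1). NT5E lies lowest at -1.37 and CD47 highest at 1.01, and the intervals of CD274, PDCD1LG2, PVR and IDO1 cross 0.

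CD47 (gene ID 961, chromosome 3) is the signal that tells macrophages not to engulf a cell. It was at 26.24, 26.28 and 26.08 FPKM in 231-BR libraries and at 13.25, 13.09 and 12.44 FPKM in MDA-MB-231 libraries. The libraries of a line lay close together and the lines were far apart. The means of 26.2 ± 0.106 and 12.9 ± 0.429 FPKM differed 2.03-fold, a log2 fold change of 1.01 with an interval of 0.94 to 1.09 (SE 0.0346, adjusted p = 2.8e-09, limma). Of all genes tested, 10.7% had a higher log2 fold change. The rise was called under every alternative, but its size sat at the edge of the study's criterion of 1. It came to 0.95 with quantile normalization, 0.93 with median-of-ratios scaling, 0.97 with a pseudocount of 1 and 0.99 without MDA-MB-231 replicate 3.

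HIF1A, a hypoxia factor whose targets are known to include CD47, was lower in 231-BR cells at 48.2 ± 0.848 against 92.9 ± 2.48 FPKM (log2 fold change -0.94, adjusted p = 9.0e-10, limma), and is named here after its value was seen. The promoter window of CD47 is shown for this reason (RefSeq, GRCh38.p14, chr3:108090982-108091281, minus strand, read 5′ to 3′ along the gene). The capitals mark the 3 matches to GCGTG, a form of the hypoxia response core, searched on both strands, at 203, 78 and 16 bases before the start. The other form, ACGTG, was not searched and occurs unmarked near the beginning of the window.
CD47: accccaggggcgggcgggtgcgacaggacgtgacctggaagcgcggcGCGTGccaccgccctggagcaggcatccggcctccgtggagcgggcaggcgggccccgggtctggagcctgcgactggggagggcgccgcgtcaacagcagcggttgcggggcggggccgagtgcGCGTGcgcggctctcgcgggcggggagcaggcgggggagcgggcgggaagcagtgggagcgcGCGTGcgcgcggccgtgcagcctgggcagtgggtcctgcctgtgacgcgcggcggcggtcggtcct
The GCGTG form occurred in 36.5% of all promoter windows, and the CD47 window had a GC content of 79.0%, where the median over all windows was 58.7%. Among the other members searched, NT5E, which was lower in 231-BR cells as HIF1A was, and VTCN1 had 1 match each. Whether HIF1A played a part in the level of any member was not tested.

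SIRPA and THBS1, direct partners of CD47, did not pass the test. SIRPA, which encodes its macrophage receptor, was at 1.74 ± 0.157 and 1.84 ± 0.0173 FPKM in 231-BR and MDA-MB-231 cells (adjusted p = 0.44, limma). THBS1, the secreted ligand thrombospondin-1, was at 67.6 ± 0.504 and 68.6 ± 2.83 FPKM (adjusted p = 0.54, limma). Scaling changed both calls, as SIRPA came to -0.45 (adjusted p = 8.5e-04, limma) with quantile normalization and THBS1 to -0.10 (adjusted p = 0.01, limma) with median-of-ratios scaling. Over the list of CD47 partners and phagocytosis signals, 5 of 8 genes tested were higher, 1 lower and 2 not called, and the median log2 fold change was 0.57. That was 62.5% higher and 12.5% lower, against 44.4% and 32.9% of all genes tested. The list pools signals for and against engulfment, so these counts give no direction for engulfment. CALR, its most abundant gene, was higher in 231-BR cells at 826 ± 11.8 against 667 ± 16.8 FPKM (adjusted p = 1.1e-06, limma), and is named after its value was seen.

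A pair of genes on that list changed by more than CD47 itself. CD24, another signal against engulfment, was higher in 231-BR cells at 18.6 ± 0.75 against 1.66 ± 0.12 FPKM (log2 fold change 3.41, adjusted p = 4.6e-11, limma). CD24 has near-identical pseudogene copies, and its value is uncertain to that extent. LRP1, a receptor that macrophages use for engulfment, rose from 0.273 ± 0.0379 to 1.61 ± 0.0351 FPKM (log2 fold change 2.2, adjusted p = 7.0e-08, limma), or 1.04 with a pseudocount of 1.

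NT5E (gene ID 4907, chromosome 6) encodes CD73, the surface enzyme that turns AMP into adenosine, and it was the most abundant member in both lines. It was at 115.28, 112.68 and 113.64 FPKM in 231-BR libraries and at 299.38, 294.10 and 290.70 FPKM in MDA-MB-231 libraries. Every MDA-MB-231 library was far above every 231-BR library. The means of 114 ± 1.31 and 295 ± 4.37 FPKM differed 2.59-fold, a log2 fold change of -1.37 with an interval of -1.42 to -1.32 (SE 0.0217, adjusted p = 1.9e-11, limma). Of all genes tested, 2.6% had a lower log2 fold change. By the difference of the means in FPKM, -181, 67 of the 17039 genes fell by more. NT5E remained among the abundant genes, at rank 650 of 17039 in 231-BR and rank 230 in MDA-MB-231 cells.

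NT5E is known to respond to cyclic AMP, and its promoter window is shown with the 1 match to the cyclic AMP response element core TGACGT in capitals, searched on both strands and found 127 bases before the start (RefSeq, GRCh38.p14, chr6:85449833-85450132, plus strand).
NT5E: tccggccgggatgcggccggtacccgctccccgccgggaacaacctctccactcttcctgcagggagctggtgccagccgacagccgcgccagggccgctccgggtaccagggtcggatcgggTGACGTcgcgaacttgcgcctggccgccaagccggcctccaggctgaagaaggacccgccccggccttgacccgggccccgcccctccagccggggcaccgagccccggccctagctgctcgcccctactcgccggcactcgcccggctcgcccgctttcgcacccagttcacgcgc
That core was found in 7.98% of all promoter windows.

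Other genes of adenosine production, removal, transport and sensing were counted beside NT5E. Of 11 tested, from 16 with an entry, 8 were higher in 231-BR cells, 2 lower and 1 not called, with a median log2 fold change of 0.47, where 44.4% of all genes tested were higher. ENTPD1 (CD39), which makes the AMP that CD73 uses, rose from 3.24 ± 0.0954 to 4.53 ± 0.196 FPKM (log2 fold change 0.47, adjusted p = 4.9e-05, limma). ENTPD3, a related ecto-nucleotidase, rose from 0.147 ± 0.0379 to 3.44 ± 0.201 FPKM (log2 fold change 3.85, adjusted p = 2.7e-09, limma). Close to 0 in MDA-MB-231 cells, its log2 fold change ran from 1.95 with a pseudocount of 1 to 4.49 with 0.01, and that of ENTPD1 was 0.21 with quantile normalization. Both stayed far below NT5E in every library.

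The receptors of adenosine were lower or not called, and its transporters were split. ADORA2A, an adenosine receptor, was lower in 231-BR cells at 0.58 ± 0.0608 against 2.65 ± 0.127 FPKM (log2 fold change -2.02, adjusted p = 3.9e-08, limma), or -1.21 with a pseudocount of 1. The far more abundant receptor ADORA2B, named after its value was seen, was not called. It was at 38.3 ± 0.859 FPKM in 231-BR and 36.6 ± 1.61 FPKM in MDA-MB-231 cells (log2 fold change 0.06, adjusted p = 0.13, limma). SLC29A2, a nucleoside transporter, rose from 5.39 ± 0.291 to 13.9 ± 0.312 FPKM (log2 fold change 1.35, adjusted p = 4.5e-09, limma). The more abundant transporter SLC29A1, named after its value was seen, was lower at 74.4 ± 1.88 against 102 ± 1.26 FPKM (log2 fold change -0.46, adjusted p = 9.0e-08, limma).

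**Figure D3:**
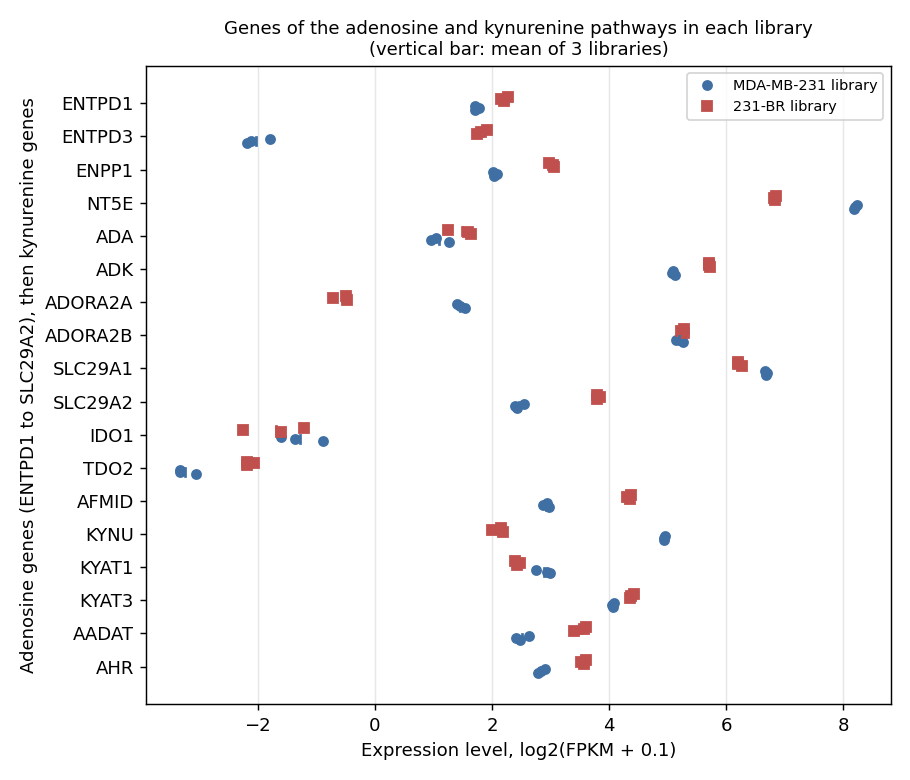
Expression level, log2(FPKM + 0.1), of genes of the adenosine and then the kynurenine pathway, with 1 point a library, squares for 231-BR, circles for MDA-MB-231 and a vertical bar at each mean. NT5E, ADORA2A and KYNU sit lower in 231-BR libraries, and ENTPD3, SLC29A2, AFMID and AADAT sit higher.

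IDO1 (gene ID 3620, chromosome 8) encodes the enzyme that opens the tryptophan ring on the way to kynurenine. It was barely detected, at 0.33, 0.11 and 0.23 FPKM in 231-BR libraries and 0.23, 0.29 and 0.44 FPKM in MDA-MB-231 libraries. The libraries overlapped, and the SD was 49.3% of the mean in 231-BR and 33.8% in MDA-MB-231 cells. The log2 fold change of -0.41 had an interval of -1.03 to 0.22 (adjusted p = 0.21, limma), so a difference was not detectable at this level. With quantile normalization the value was -0.75 with an adjusted p of 0.028 by limma. TDO2, which catalyzes the same step, was at 0.12, 0.14 and 0.12 FPKM in 231-BR libraries and 0, 0 and 0.02 FPKM in MDA-MB-231 libraries and was not tested. IDO2 had no entry among the genes given.

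Of 9 listed enzymes that act after the IDO1 step, 5 could be tested, and 3 of them were higher in 231-BR cells and 2 lower. With the tryptophan transporter, the tryptophan tRNA synthetase and the kynurenine receptor AHR also on the list, 5 of 9 genes were higher and 4 lower, with a median log2 fold change of 0.13. As shares, 55.6% were higher and 44.4% lower, against 44.4% and 32.9% of all genes tested. AFMID, which forms kynurenine, rose from 7.51 ± 0.254 to 20.2 ± 0.535 FPKM (log2 fold change 1.41, adjusted p = 8.6e-10, limma). KYNU, kynureninase, which breaks kynurenine down, fell from 30.8 ± 0.176 to 4.21 ± 0.293 FPKM, a ratio of 7.3 (log2 fold change -2.84, adjusted p = 4.2e-11, limma). AADAT, an aminotransferase that turns kynurenine into kynurenic acid, rose from 5.6 ± 0.48 to 11.5 ± 0.878 FPKM (log2 fold change 1.02, adjusted p = 5.4e-07, limma). These are RNA levels, and no metabolite was measured.

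PVR (gene ID 5817, chromosome 19) encodes CD155, the ligand of the inhibitory receptor TIGIT and the activating receptor DNAM-1. It was at 39.25, 41.06 and 39.34 FPKM in 231-BR libraries and 40.67, 39.48 and 39.69 FPKM in MDA-MB-231 libraries. The libraries overlapped and the means were level, at 39.9 ± 1.02 and 39.9 ± 0.635 FPKM. The log2 fold change was 0.00 with an interval of -0.07 to 0.06 (adjusted p = 0.94, limma), a ratio between 0.955 and 1.04. With median-of-ratios scaling it was -0.09 with an adjusted p of 0.019 by limma. A log2 fold change of at most 0.05 in size, which both PVR and CD274 had, was found for 7.53% of all genes tested.

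NECTIN2, the related ligand of TIGIT and PVRIG, was lower in 231-BR cells at 36.9 ± 0.187 against 43.4 ± 0.866 FPKM (log2 fold change -0.24, adjusted p = 1.5e-05, limma). The ratio of PVR to NECTIN2 was 1.07, 1.12 and 1.06 in 231-BR libraries and 0.915, 0.919 and 0.924 in MDA-MB-231 libraries. By FPKM, PVR thus exceeded NECTIN2 in the 231-BR libraries and fell short of it in the others, though at ratios near 1 the order of the RNAs is uncertain. The exact two-sided permutation p of 0.1 was the smallest possible (adjusted p = 0.15 over the 3 ratios). Of the 3 other nectins tested, NECTIN2 included, 2 were higher and 1 lower, where 44.4% and 32.9% of all genes tested were.

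CD96, a receptor of PVR found on T and NK cells, was abundant in 231-BR cells and close to 0 in MDA-MB-231 cells. It was at 39.39, 37.67 and 36.28 FPKM in 231-BR libraries and at 0.07, 0.18 and 0.15 FPKM in MDA-MB-231 libraries (log2 fold change 7.37, adjusted p = 9.9e-11, limma), so that its mean of 37.8 ± 1.56 FPKM in 231-BR cells came near that of PVR itself. The defining leukocyte genes were near 0 in the same libraries, with PTPRC at 0.02, 0.04 and 0.01 FPKM, and CD8A was the sole leukocyte marker above 1 FPKM, at 1.54, 1.40 and 1.40 FPKM. Of the 12 lymphocyte receptors with an entry, 10 were under 1 FPKM in every library.

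TNFRSF14 (gene ID 8764, chromosome 1) encodes HVEM, which engages the inhibitory receptors BTLA and CD160 and also the ligand LIGHT. It was at 1.81, 1.98 and 1.56 FPKM in 231-BR libraries and at 1.00, 1.21 and 1.00 FPKM in MDA-MB-231 libraries. The lines did not overlap, but the level was low in both. The means of 1.78 ± 0.211 and 1.07 ± 0.121 FPKM differed 1.67-fold, a log2 fold change of 0.69 with an interval of 0.43 to 0.95 (SE 0.116, adjusted p = 3.4e-04, limma). The value was smaller with a pseudocount of 1, at 0.43, and with quantile normalization, at 0.29 (adjusted p = 0.04, limma). The antisense gene TNFRSF14-AS1 overlaps it in RefSeq, and the reads of the pair cannot be told apart where counting did not use the strand.

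Most genes listed beside HVEM, its partners and genes of the lymphotoxin system, were at low levels. TNFSF14 (LIGHT) was at 0.10, 0.03 and 0.05 FPKM in 231-BR libraries and 0.09, 0.17 and 0.09 FPKM in MDA-MB-231 libraries, and BTLA was at most 0.05 FPKM in any library, so neither was tested. All 4 of the listed genes that were tested (CD160, LTA, LTB and LTBR) were lower in 231-BR cells, where 32.9% of all genes tested were. Their median log2 fold change was -0.78. LTB and LTBR are lymphotoxin genes whose products are not known ligands of HVEM. CD160 and LTA, whose products bind it, were at most 0.32 and 0.28 FPKM in any library. LTBR, the lymphotoxin receptor, was the exception in level, at 31.2 ± 1.07 against 38.3 ± 1.76 FPKM (adjusted p = 6.0e-05, limma). These 4 were named after their values were seen.

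**Figure D4:**
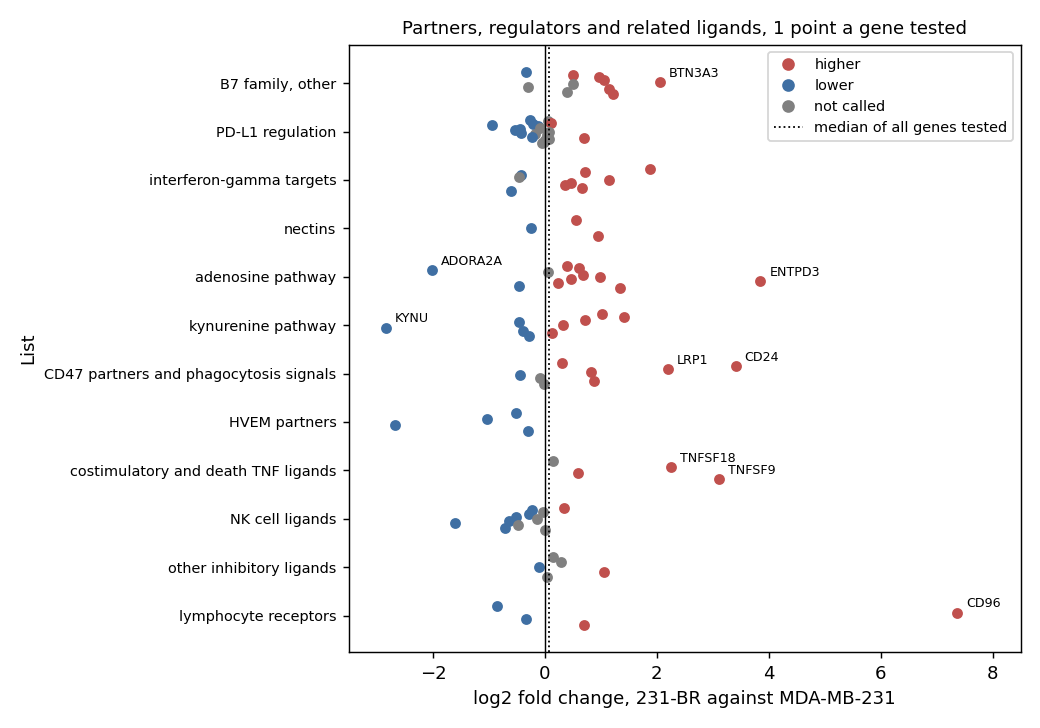
Log2 fold change, 231-BR against MDA-MB-231, of 97 tested partners, regulators and related ligands of the members, with 1 point a gene, grouped by list and colored by call at an adjusted p under 0.05, with a dotted line at the median of all genes tested. CD96 stands far to the right at 7.37 and KYNU furthest to the left at -2.84.

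Over all lists of partners, regulators and related ligands, 97 of 136 genes could be tested, 41 of which were higher, 32 lower and 24 not called. Their median log2 fold change was 0.06, near the 0.08 of all genes tested. As shares, 42.3% were higher and 33.0% lower, against 44.4% and 32.9% of all genes tested. By the study's criteria as read here 7 were higher and 1 lower, where 4.68% and 1.77% of all genes tested were. That 7 became 4 with a pseudocount of 1, with quantile normalization and with median-of-ratios scaling, and the 1 became 2 with the latter pair of settings. With a mean of at least 1 FPKM asked for in either line, 14 were higher and 2 lower, CD96 and ENTPD3 among the former.

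The members were also ordered by level within each line. In 231-BR cells the order from high to low was NT5E, PVR, CD47, CD274, CD276, TNFRSF14, PDCD1LG2, IDO1 and VTCN1, and no neighbors in it overlapped over the 3 libraries. In MDA-MB-231 cells it was NT5E, PVR, CD276, CD274, CD47, PDCD1LG2, TNFRSF14, IDO1 and VTCN1. There the neighbors PDCD1LG2 and TNFRSF14 overlapped, and CD274 and CD47 nearly met, with 13.36 FPKM in the lowest library of the first and 13.25 FPKM in the highest of the second. Of the 9 members, 4 stood at different places in the lines, as CD47 and CD276 changed places around CD274 and TNFRSF14 and PDCD1LG2 also did.

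Set among all genes, the members covered a wide range. PVR was in the top 12.5% and 12.2% of genes in 231-BR and MDA-MB-231 cells, and NT5E in the top 3.81% and 1.35%. CD47 moved from the top 31.1% in MDA-MB-231 cells to the top 18.9% in 231-BR cells, and CD276 from the top 24.9% to the top 36.4%.

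The genes next to each member on its chromosome were also described, up to 20 on either side, over those with a mean of at least 1 FPKM. The neighbors of NT5E had a median log2 fold change of 0.01, with 15 of 40 higher and 15 lower, and the adjacent genes CEP162 and SNX14 were at -0.37 and 0.00. No neighbor of NT5E was as low as NT5E, since the lowest, ME1, was at -0.98. The neighbors of CD276 had a median of 0.02 and those of PVR a median of -0.02.

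Of all 11124 genes with a mean of at least 1 FPKM, 45.3% were higher and 35.4% lower. Of the 40 neighbors of CD47, 27 were higher and 5 lower, with a median log2 fold change of 0.30, and the adjacent genes BBX and IFT57 were at 0.30 and 0.19. CD96 was among them, 6 places beyond CD47, and NECTIN3, which encodes another nectin, was 1 place nearer at 0.95 and is named after its value was seen. TNFRSF14 had 25 higher and 13 lower among 40 neighbors, with a median of 0.27. The difference of these counts from all genes was not tested. The medians around CD274 and PDCD1LG2, which share most of their neighbors, were -0.13 and -0.11. Whether the surroundings played a part in the members' values was not tested.

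**Figure D5:**
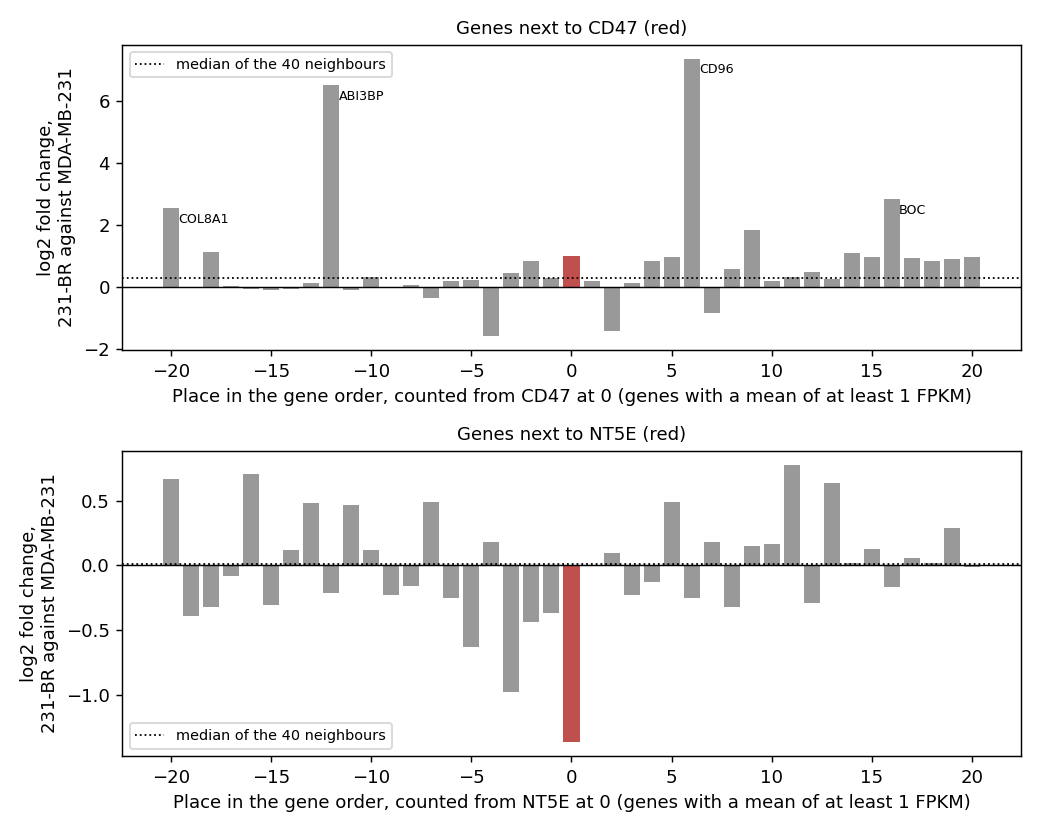
Log2 fold change, 231-BR against MDA-MB-231, of genes with a mean of at least 1 FPKM by their place in gene order before or after CD47 and NT5E, 20 on either side. Around CD47 most genes lie above 0, with CD96 at 7.37, and around NT5E they lie evenly about 0 while NT5E itself is at -1.37.

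Profiles over the 6 libraries were compared by the root mean square distance of centred log2 values among 11124 genes with a mean of at least 1 FPKM. Nearest to NT5E were TNIP1 at 0.0229 and PLP2 at 0.0258, and nearest to CD47 were LAMC1 at 0.0111 and CDC42BPA at 0.0181. CD276 had ITGB3BP at 0.0148 and SMPD4 at 0.023, and TNFRSF14 had CLP1 at 0.0614 and TTC9C at 0.0671. For the members that were not called, the nearest were CAPN7 and EXOC6B for CD274, DDX28 and IFT20 for PDCD1LG2, and CRNKL1 and RTL8A for PVR. Flat profiles were common, with 2672 genes within a distance of 0.1 of PVR and 2296 of CD274, while 65 lay that near to NT5E and 47 to TNFRSF14. With 6 libraries in 2 lines, such a likeness mostly restates the difference between the lines.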

How the data were processed

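Poly(A) RNA of 3 libraries of 231-BR and 3 of MDA-MB-231 cells was sequenced. After read filtering and alignment to a genome and gene models, the authors deposited FPKM values with 2 decimals. The submitters' processing notes name HISAT2 2.0.4, Bowtie2 2.2.5 and GRCh38.p12, and the program that computed FPKM is not given in the sources used here. No read counts were used here, so depth is unknown and no counting intervals are given. In the cell line labels the number in the name runs from 231 to 233 over the replicates of a line, and libraries were grouped by title.

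Here log2(FPKM + 0.1) was fitted with limma 3.58.1 in R 4.3.3 (lmFit, eBayes with trend, 1 term for the line) for 13465 genes with a mean of at least 0.1 FPKM, with Benjamini-Hochberg adjustment over all of them. Ratios within a library used exact permutation tests in scipy 1.17.1. Tables and plots used Python 3.11.15, pandas 2.3.3 and matplotlib 3.10.9. The fit was tested on simulated data. Same-numbered libraries of the lines did not deviate together (correlations 0.0873, -0.0396 and -0.106 over 11124 genes), so none were paired.

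The members and the lists were chosen with earlier results of these data known. Named were all members, list genes called at 0.05 whose log2 fold change exceeded 1 in size and whose mean reached 1 FPKM in either line, the direct partners of members whatever their values, and for each member at 1 FPKM or more the 2 genes of nearest profile. Genes named outside this rule are marked in the text. Leukocyte, endothelial, astrocyte and neuron, breast cancer line and receptor markers were also listed. Alternatives were pseudocounts of 1 and 0.01, no filter or a minimum mean of 1 FPKM, median-of-ratios and quantile scaling, eBayes without trend, the replicate number as a block, and each library left out.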

Additional observations from a re-analysis of the deposited data

How the results depend on the processing

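The calls and directions of NT5E, CD276, CD47 and TNFRSF14 held under every alternative, with log2 fold changes of -1.45 to -1.28, -0.84 to -0.70, 0.93 to 1.03 and 0.29 to 0.77. The number of members higher was 2 throughout. The number lower was 4 in place of 2 with quantile normalization and with median-of-ratios scaling, which shift the median of all genes by -0.13 and -0.08. Members higher by the study's criteria went from 1 to 0 with a pseudocount of 1, with quantile normalization and with median-of-ratios scaling, and ranged from 0 to 1 when a library was left out, the 0 coming without MDA-MB-231 replicate 3. PDCD1LG2 reversed to -0.36 with quantile normalization, which also moved the log2 difference of its ratio to CD274 to 0.28.

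Neighbor medians under quantile normalization and median-of-ratios scaling, in that order, were -0.36 and -0.21 for CD274, -0.36 and -0.19 for PDCD1LG2, -0.14 and -0.06 for CD276, 0.25 and 0.22 for CD47, -0.19 and -0.08 for NT5E, -0.23 and -0.1 for PVR, 0.16 and 0.19 for TNFRSF14 and -0.11 and -0.07 for IDO1, and that of VTCN1 was -0.2 with the second. Around CD276 it ranged from -0.02 to 0.03 over the libraries left out. Other causes were not tested. With the replicate number as a block, 2 members were higher and 2 lower, no member's call changed, and 10502 genes were called in place of 10406. Companion genes called higher ranged from 32 to 46 and lower from 26 to 40. FPKM without counts leaves the precision of low genes such as IDO1 and TNFRSF14 unknown.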

Other observations

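Ligands of activating and of inhibitory NK cell receptors were listed together. Of 11 tested, 6 were lower in 231-BR cells, 1 higher and 4 not called, with a median log2 fold change of -0.28, where 32.9% of all genes tested were lower and 44.4% higher. The lower ones included MICB, a stress ligand of the receptor NKG2D, at 21.6 ± 0.977 against 30.9 ± 1.14 FPKM (adjusted p = 1.3e-06, limma), and ULBP2, another NKG2D ligand, at 7.39 ± 0.386 and 12.3 ± 1.06 FPKM (adjusted p = 3.2e-06, limma). HLA-E, the most abundant gene of the list, was also lower at 49.2 ± 0.282 against 57.9 ± 1.05 FPKM (adjusted p = 1.1e-05, limma). ULBP3, a further NKG2D ligand, was not called, at 8.79 ± 0.447 and 8.79 ± 0.373 FPKM. These genes were named after their values were seen. MICB and ULBP2 have close sequence relatives (MICA and RAET1L) with which reads may have been shared.

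Of 4 tested costimulatory ligands of the TNF family, which act on T cells, 3 were higher and 1 was not called, with a median log2 fold change of 1.42. Over all genes tested, 44.4% were higher. TNFSF9 (4-1BB ligand) rose from 0.4 ± 0.135 to 4.11 ± 0.394 FPKM (log2 fold change 3.11, adjusted p = 1.3e-07, limma), and TNFSF18 (GITR ligand) rose from 0.16 ± 0.0346 to 1.17 ± 0.35 FPKM (log2 fold change 2.25, adjusted p = 5.1e-06, limma). With a pseudocount of 1 the log2 fold changes were 1.87 for TNFSF9 and 0.89 for TNFSF18, since both were near 0 in MDA-MB-231 cells. Of 5 tested other inhibitory ligands, 1 was higher, 1 lower and 3 not called, where 44.4% of all genes tested were higher and 32.9% lower. LGALS3, a galectin that binds LAG-3, was the higher one, at 47.8 ± 0.925 against 22.8 ± 0.187 FPKM (log2 fold change 1.06, adjusted p = 3.7e-10, limma).

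Endothelial markers summed to 0.41 to 0.5 FPKM in 231-BR libraries and 0.2 to 0.22 FPKM in MDA-MB-231 libraries, and astrocyte and neuron markers to 0.15 to 0.24 and 0.03 to 0.04 FPKM. Of the receptor genes, ERBB2 was at 9.88 FPKM on average in 231-BR and 4.95 FPKM in MDA-MB-231 cells, and EPCAM at 8.7 and 5.06 FPKM.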
